A study of Brachypodium distachyon with 24 samples.

Results

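The Bd3-1 allele was compared with the Bd21 allele inside the same leaf, in 5 well-watered F1 hybrids of Brachypodium distachyon, a small grass related to wheat and barley. Bd21 and Bd3-1 are inbred accessions. Bd21 pollen was placed on emasculated Bd3-1 flowers, so every F1 plant carried a maternal Bd3-1 copy and a paternal Bd21 copy of each nuclear gene, and accession and parent of origin cannot be told apart. A gene was included if, in each of 14 parental libraries, its own allele had a count above 1 and the opposing allele held under 20% of the sum of both. This rule kept 3403 of 32439 genes (10.5%). The F1 control plants were held at 85% of the water the pot could retain, and leaf was collected on day 6 of the dry-down given to the drought plants, which began on day 33 after sowing. The readouts set beside them were 5 F1 drought plants (55%) of the same age, and parental control plants, 3 of Bd21 and 5 of Bd3-1, also at 85%. The study took 3 parental plants of each genotype and condition from a separate, earlier experiment. The labels do not say which of the Bd3-1 control plants these were, or where the others were grown.

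In an F1 nucleus both alleles meet the same transcription factors and the same cell environment. A difference between their transcript levels is therefore usually assigned to sequence on the chromosome that carries the gene, such as a promoter, an enhancer or an element that sets RNA stability. This is called cis-regulatory variation, and the comparison of alleles within F1 plants is known as allele-specific expression. A parental difference, by contrast, also contains the effect of factors encoded elsewhere, called trans-acting. No sequence is shown for the genes below, because the reference tables did not pair the gene identifiers with a sequence, and most of the identifiers come without a described function. A function is given where the study names one.

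The F1 control libraries held between 18043266 and 38713326 estimated counts, and the 3403 genes took between 27.9% and 30.1% of them. In the parental libraries at least 99.7% of the counts on these genes went to the library's own allele. The rule selected genes on these same libraries, so this share is not an independent check of the allele assignment. Just inside the rule was Bradi1g53490, with 19.9% of the opposing allele in its worst parental library, and just outside was Bradi1g47340, with 20.0%. The labels were checked with 4 drought genes that the study names, and for each the highest F1 control plant lay below the lowest F1 drought plant. Bradi1g51770, a late embryogenesis abundant protein gene, had between 0 and 91.4 normalized counts in F1 control and between 1341 and 2047 in F1 drought. The smallest chi-square between 2 F1 control libraries was 41.9 for each degree of freedom, well above counting noise, and each library was kept as its own plant.

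Summed over the 3403 genes, the alleles were nearly balanced. The Bd3-1 allele held 49.9% of the counts in F1 control plant 1, 49.8% in plant 2, 49.5% in plant 3, 49.4% in plant 4 and 49.6% in plant 5. The mean was 49.7% ± 0.215 (SD, n = 5), below 50% in 5 of 5 plants. An exact two-sided sign-flip permutation test gave p = 0.062, the smallest that 5 plants allow, so this design cannot place the tilt towards Bd21 under 0.05. The reads were aligned to a transcriptome built from the Bd21 reference with the Bd3-1 variants added, and its part in the tilt was not tested. Gene by gene, the median fitted difference was -0.04 on the log2 scale, with 1593 genes higher for Bd3-1 and 1810 higher for Bd21. For 65.3% of the genes the fitted difference was under 0.5 on the log2 scale in either direction.

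The allele difference of each gene was tested with edgeR's quasi-likelihood test, with the plant as a block. Benjamini-Hochberg adjustment was made over all 3403 genes. At an adjusted p under 0.05, 99 genes (2.91% of those tested) differed between alleles. The Bd3-1 allele was higher in 37 (1.09%) and the Bd21 allele in 62 (1.82%). Their median size was 1.01 on the log2 scale in either direction, that is about 2-fold, and 53 of the 99 differed by more than 2-fold. All 99 had the same sign of the log2 ratio in all 5 plants. They were selected by a test on these same plants, so this agreement is not further support. Among all genes tested, 680 (20.0%) had the same sign in every plant, 273 towards Bd3-1 (8.02%) and 407 towards Bd21 (12.0%). The study's cutoff for cis effects is an unadjusted P under 0.1, which it applied to DESeq2 models of F1 and parents together. At that cutoff the edgeR test used here passed 783 genes (23.0%), 325 of them towards Bd3-1 and 458 towards Bd21. A fraction of 0.1 would pass if no gene differed.

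**Figure D1:**
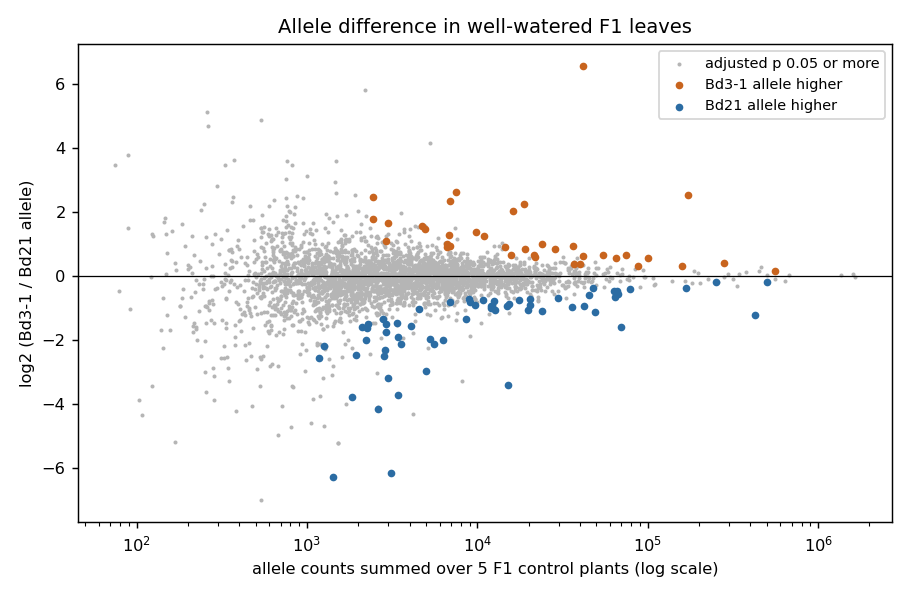
The fitted log2 difference between the Bd3-1 and the Bd21 allele (vertical axis) is plotted against the allele counts summed over the 5 F1 control plants (horizontal axis, log scale), 1 point for each of 3403 genes. Orange marks the 37 genes higher for Bd3-1 and blue the 62 higher for Bd21 at an adjusted p under 0.05, and the grey cloud narrows as counts rise.

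How far a gene's alleles could be told apart depended on its abundance. Among the 851 genes with the fewest counts (median 791 over the 5 plants), the log2 ratio varied between plants with a median SD of 1.45, and 2 genes (0.235%) passed the test. Among the 851 with the most counts (median 13502) the SD was 0.313, and 60 genes (7.05%) passed. In both classes the plants varied more than counting noise worked out from the estimated counts, by a median factor of 3.81 and 5.66. Reads that fit both alleles are split between them, so fewer reads than these counts tell the alleles apart. The factors can therefore overstate the variation between plants. A further 423 genes had a fitted difference over 2-fold and did not pass the test.

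The 5 plants were not equally steady. In plant 2, 12.1% of the genes had alleles more than 8-fold apart, against 2.50% in plant 1, 1.70% in plant 3, 3.61% in plant 4 and 5.61% in plant 5. In that plant 316 genes had under 1 estimated count for one allele and not for the other, while the other plants had between 20 and 133 such genes. Across genes, which are not independent, its log2 ratios had a Pearson correlation of between 0.089 and 0.2005 with those of the other plants, and the other pairs had between 0.191 and 0.364. Its summed share of 49.8% did not stand apart. Without plant 2 the number of genes past the threshold rose to 123, of which 87 were among the 99. Leaving out any other plant lowered it: to 28 without plant 1, 12 without plant 3, 23 without plant 4 and 33 without plant 5. Of the 99 genes, 12 passed with all 5 plants and also in each of the fits that left out a plant. These were Bradi1g42670, Bradi1g58220, Bradi2g09145, Bradi2g39830, Bradi3g26811, Bradi3g61060, Bradi4g00940, Bradi4g11590, Bradi4g21710, Bradi4g24302, Bradi4g43460 and Bradi5g04080. They were listed after their values were seen.

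**Figure D2:**
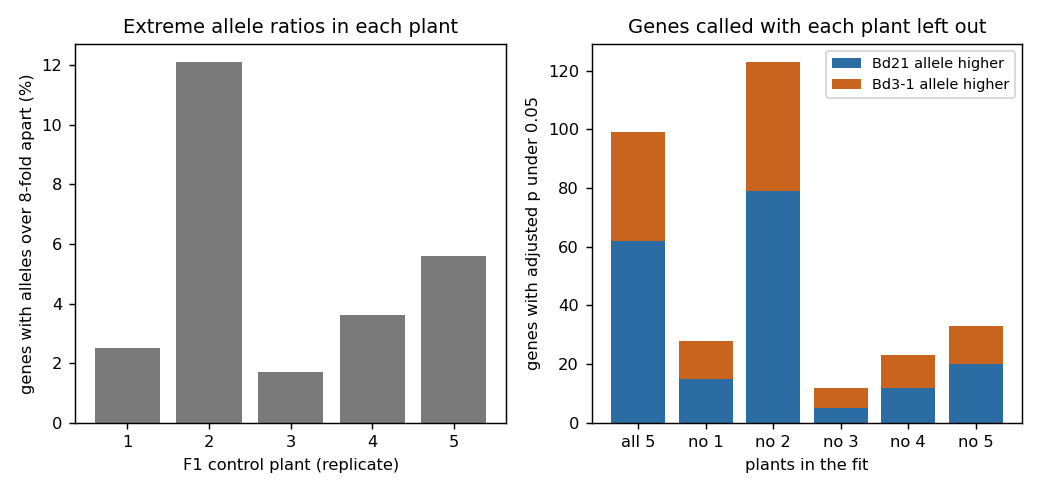
The left bars give the percentage of the 3403 genes whose alleles were more than 8-fold apart in each F1 control plant, highest in plant 2 at 12.1%. The right bars give the number of genes with an adjusted p under 0.05 in the fit of all 5 plants (99) and in fits that each left out 1 plant, between 12 and 123, divided by the allele that was higher.

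Among the 99 genes that passed, the largest fitted difference in either direction was that of Bradi4g24302. The Bd3-1 allele held 99.7%, 96.0%, 98.8%, 98.6% and 99.5% of its counts in plants 1 to 5, out of 41498 counts in all. The fitted difference was 6.59 ± 0.61 on the log2 scale (SE; edgeR adjusted p = 0.00352). Every plant lay far from 50%, with plant 2 the least extreme. Up to 8.61% of the few Bd21 parental counts of this gene went to the opposing allele. The parents differed as much: 128 ± 48.6 normalized counts in Bd21 and 11749 ± 5044 in Bd3-1 (SD, n = 3 and 5), a log2 difference of 6.53. In F1 drought the Bd3-1 allele held between 96.8% and 99.6%.

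Other genes leaned to Bd3-1 with little spread. Bradi4g43460 had 87.3%, 81.8%, 89.9%, 84.2% and 86.5% of its counts on the Bd3-1 allele, a log2 difference of 2.64 ± 0.19 (edgeR adjusted p = 0.000906), with 2.67 between the parents. Bradi4g11590 had 80.4%, 77.9%, 82.11%, 77.4% and 84.2% and a difference of 2.05 ± 0.13 (edgeR adjusted p = 0.000886). For both genes all 5 plants lay above 75%, and the parental and F1 drought differences were past the threshold in the same direction. Bradi3g26811 had 80.01%, 84.096%, 83.12%, 83.8% and 86.98% (log2 difference 2.36 ± 0.16). Among the genes that passed, the rest of the 12 with the largest differences towards Bd3-1 were Bradi1g77120, Bradi1g56137, Bradi2g09970, Bradi4g12177, Bradi4g27872, Bradi4g06038 and Bradi4g43361, from 2.47 down to 1.39, along with Bradi5g04080.

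Bradi5g04080 combined a large difference with a high level, 172363 counts over the 5 plants. The Bd3-1 allele held 80.4%, 87.9%, 88.3%, 83.9% and 85.4%, a 5.86-fold difference (log2 2.55 ± 0.13, edgeR adjusted p = 0.00075). The parents were further apart, at 330 ± 139 normalized counts in Bd21 and 21807 ± 16775 in Bd3-1, a log2 difference of 6.03. In the test of the parental difference against the allele difference it had an unadjusted P of 0.00458 and an adjusted p of 0.679 (edgeR), so these differences were not separated after adjustment.

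On the Bd21 side, Bradi1g73660 and Bradi4g44540 were close to silent on the Bd3-1 allele. Bradi1g73660 had 0%, 6.79%, 1.81%, 0.422% and 1.97% of its 3122 counts on Bd3-1, a log2 difference of -6.15 ± 0.94 (edgeR adjusted p = 0.0212). Bradi4g44540 had 1.37%, 0%, 3.198%, 4.89% and 0% of 1421 counts, a difference of -6.28 ± 1.07 (edgeR adjusted p = 0.0294). Where an allele was listed at 0 in a plant it had counts in others, and no gene lacked an allele in all 5 plants. The inclusion rule had already left out genes without counts of their own allele in a parental library. The absence of silent alleles therefore says little beyond that rule. The parents differed in the same direction for both, by -4.70 and -2.97.

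Bradi4g21710 had plant 1 above the other plants, all on the Bd21 side. The Bd3-1 allele held 16.3%, 10.04%, 10.8%, 9.80% and 10.8% of its counts, a 7.76-fold difference (log2 -2.96 ± 0.21, edgeR adjusted p = 0.000906). Bd21 parents had 2549 ± 93.7 normalized counts and Bd3-1 parents 217 ± 50.8, and F1 drought gave a log2 difference of -3.72. Bradi2g36030 had 3.07%, 4.21%, 4.83%, 14.8% and 4.13% on Bd3-1 (log2 -4.16 ± 0.44), with plant 4 above the rest. Among the genes that passed, the rest of the 12 with the largest differences towards Bd21 were Bradi2g38982, Bradi1g32960, Bradi4g43450, Bradi4g21724, Bradi3g03874, Bradi5g17132, Bradi5g01462 and Bradi2g39074, from -3.77 to -2.31. Fitted differences of this size and larger, down to -7.01, also occurred among the genes that did not pass. No plant of these 12 genes had more than 32.0% of the counts on the Bd3-1 allele.

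**Figure D3:**
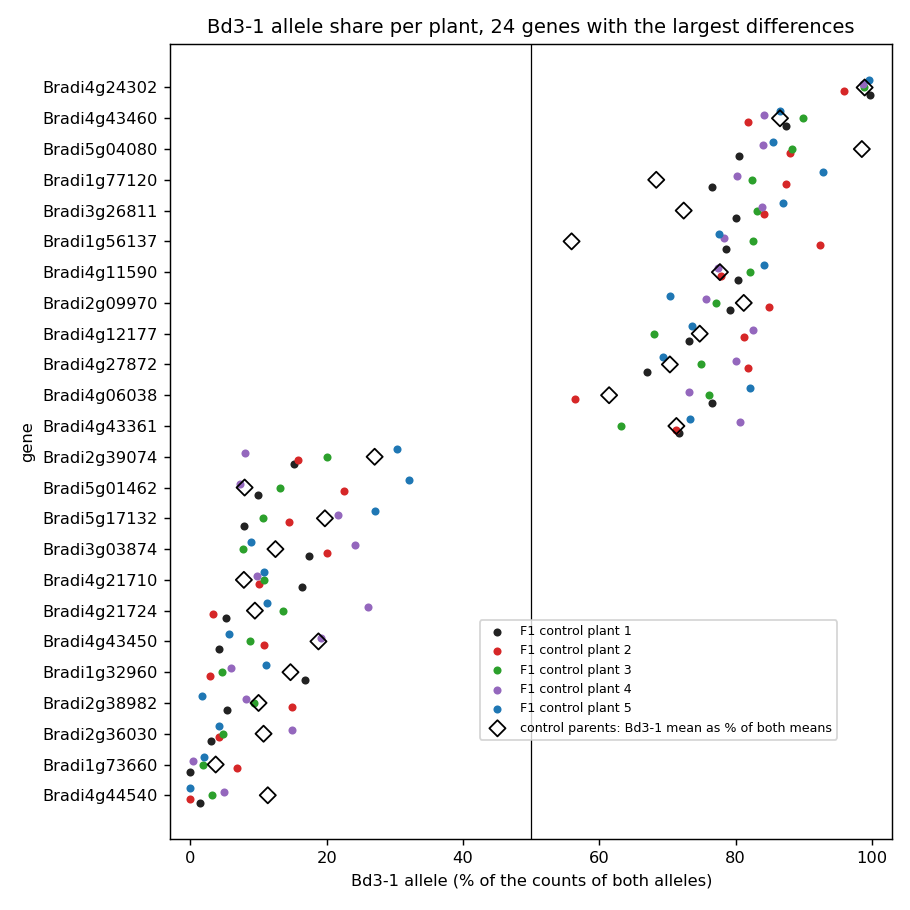
Each row is a gene, among the 12 with the largest allele differences in each direction of those that passed, and each filled point is the Bd3-1 allele as a percentage of the counts of both alleles in 1 of the 5 F1 control plants (points are offset vertically for legibility). Open diamonds give the Bd3-1 mean as a percentage of the Bd3-1 and Bd21 means in the control parents. For Bradi5g04080 all plants lie between 80.4% and 88.3%, left of the diamond.

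Of the 60 genes that passed among the 851 with the most counts, 17 differed by more than 2-fold. Bradi5g04080, described above, was one of these, and most of the other abundant genes named here differed by less. Bradi4g00940, with 281791 counts, had 56.9%, 57.1%, 57.5%, 57.3% and 56.7% on the Bd3-1 allele (log2 0.41 ± 0.03, edgeR adjusted p = 0.000886), and between 58.8% and 61.0% in F1 drought. Bradi2g09145 had 60.9%, 60.6%, 59.3%, 59.4% and 57.9% (log2 0.56 ± 0.05). Neither gene had a plant near 50%. Bradi1g06890, the most abundant of the genes that passed towards Bd3-1, was at the edge of the threshold, with a difference of 0.15 ± 0.03 (edgeR adjusted p = 0.0495) and 53.9%, 53.9%, 52.2%, 51.5% and 51.7% on that allele. Bradi2g55150 differed by 0.32 ± 0.04.

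Bradi1g42670, with 425472 counts, also differed by more than 2-fold. The Bd3-1 allele held 31.7%, 22.9%, 32.1%, 30.7% and 33.9%, a 2.32-fold difference towards Bd21 (log2 -1.21 ± 0.11, edgeR adjusted p = 0.00297). In the parents Bd21 had 37994 ± 6289 normalized counts and Bd3-1 had 48409 ± 25373, and the Bd3-1 plants ranged from 15756 to 83847 and spanned all Bd21 plants. The test of the parental against the allele difference gave an unadjusted P of 0.0619 (edgeR adjusted p = 0.815). The remaining abundant genes with the Bd21 allele higher were Bradi5g12150 (-0.19), Bradi1g51670 (-0.19), Bradi2g23750 (-0.37) and Bradi3g16180 (-0.41), all on the log2 scale.

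Of 57 genes to which the study's text gives a role or a mention, 14 had distinguishable alleles by the rule, and 29 had equal allele counts in every library. The lists are unequal in coverage: 4 of 15 genes of abscisic acid signalling and drought, 3 of 7 of carbohydrate metabolism, 2 of 5 NAC regulators, 1 of 3 of light and chloroplast, 4 of 10 others, and none of 11 in phenylpropanoid and flavonoid synthesis or of 6 circadian genes. In the drought and in the carbohydrate list 1 gene each passed, and 12 of the 14 did not, where 2.91% of all genes tested passed. The median difference over the 14 was -0.21, and over all genes tested -0.04.

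Bradi2g23740, a gene of wax biosynthesis, was higher for Bd21. Wax coats the leaf and limits water loss through the cuticle. The Bd3-1 allele held 32.4%, 29.8%, 34.7%, 39.7% and 34.4% of 35884 counts, a log2 difference of -0.95 ± 0.10 (edgeR adjusted p = 0.0064). The F1 drought plants lay on the same side, between 31.5% and 44.0% (log2 -0.79, edgeR adjusted p = 0.0677). The parents gave 0.52, the opposite sign, with an adjusted p of 0.727 in edgeR and an SD in Bd3-1 (3285 normalized counts) close to its mean (3438). Bradi2g23750, the next gene but 1 in identifier order, also passed towards Bd21.

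Bradi4g15010, a gene of starch metabolism, was higher for Bd3-1. That allele held 60.6%, 61.1%, 69.4%, 65.6% and 64.9%, a log2 difference of 0.85 ± 0.12 (edgeR adjusted p = 0.0164). All 5 plants lay above 60%. Leaf starch is built by day from photosynthate and broken down at night. In F1 drought the Bd3-1 share was between 50.8% and 62.9% (log2 0.42, edgeR adjusted p = 0.231).

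The other study-named genes did not pass in F1 control. Bradi3g52660, an ABA 8'-hydroxylase and ortholog of Arabidopsis CYP707A1, which breaks down abscisic acid, had 47.2%, 70.2%, 45.9%, 59.9% and 62.3% on Bd3-1, on both sides of 50%. Bradi4g24650, the ortholog of rice ASR5, had 51.0%, 31.3%, 44.8%, 42.4% and 52.0% in F1 control (log2 -0.34 ± 0.19, edgeR adjusted p = 0.445). In F1 drought it was between 33.1% and 38.1% (log2 -0.88, edgeR adjusted p = 0.00208). The difference between the conditions was not past the threshold (edgeR adjusted p = 0.97). Bradi1g15840, a putative allene oxide cyclase of jasmonic acid synthesis, had a difference of -0.62 ± 0.24 in F1 control and -0.61 between the parents, where it passed (edgeR adjusted p = 0.271 and 0.0184).

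Bradi1g53680, a predicted zinc transporter, had 45.5%, 49.9%, 49.3%, 57.1% and 44.9% on Bd3-1, around 50%. Its parental levels were 2389 ± 870 in Bd21 and 7311 ± 3522 in Bd3-1, a difference that did not pass (edgeR adjusted p = 0.0523). The study proposes that a trans-acting variant controls Bradi1g53680, at its cutoff of an unadjusted P under 0.1. Here the test of the parental against the allele difference of this gene gave an unadjusted P of 0.0141 (edgeR, log2 1.58 ± 0.58). It did not pass after adjustment (edgeR adjusted p = 0.815). In contrast its neighbour in identifier order, Bradi1g53670, which was picked after its values were seen, passed towards Bd21 (30.97%, 26.8%, 26.2%, 37.0% and 21.8%). The parents were at 597 ± 219 and 533 ± 161 for Bradi1g53670 (edgeR adjusted p = 0.804). Its parental and allele differences were not separated after adjustment (edgeR unadjusted P = 0.0134, adjusted p = 0.815).

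**Figure D4:**
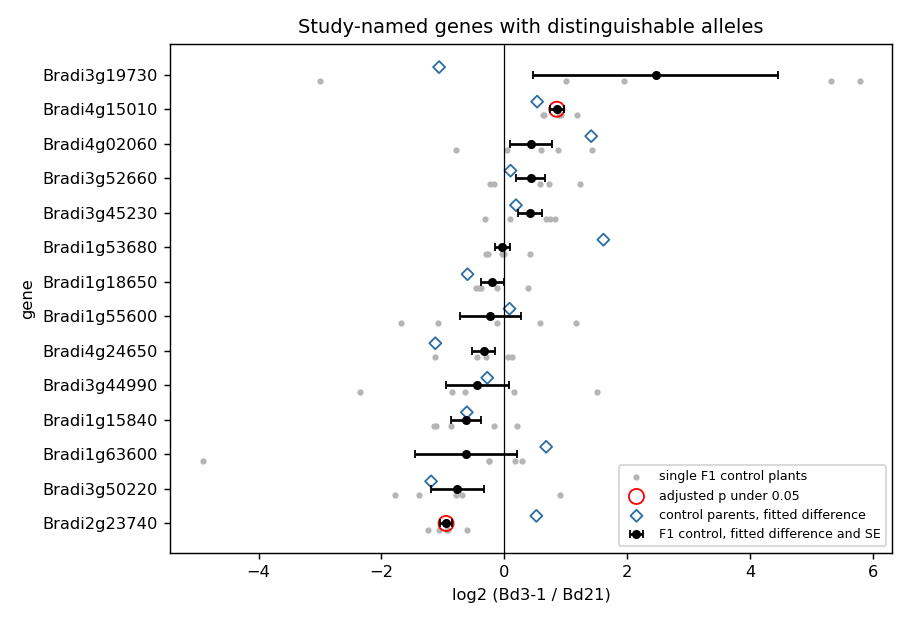
The 14 study-named genes with distinguishable alleles are shown with the fitted log2 difference (Bd3-1 over Bd21) in F1 control as black points with SE bars, the 5 single plants as grey points and the control parents as open diamonds. Red rings mark Bradi4g15010 (0.85) and Bradi2g23740 (-0.95), the genes with an adjusted p under 0.05.

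The 99 genes lay on all chromosomes. By the number in the identifier, 20 of 845 were on chromosome 1 (2.37%), 24 of 655 on chromosome 2 (3.66%), 14 of 892 on chromosome 3 (1.57%), 27 of 605 on chromosome 4 (4.46%) and 13 of 404 on chromosome 5 (3.22%), and 1 was on a scaffold. Among the genes that passed, 6 pairs had at most 2 identifiers between them, and 4 of these pairs had the same sign. The pairs named next were picked after their values were seen. Bradi2g39710 and Bradi2g39720, adjacent identifiers, were both higher for Bd21 (log2 -1.56 and -1.99), as were Bradi4g21710 and Bradi4g21724 (-2.96 and -3.20). Bradi4g43450 and Bradi4g43460, also adjacent, went in opposite directions: the Bd3-1 allele held between 4.14% and 19.1% of the first and between 81.8% and 89.9% of the second. Both kept these directions in the parents (-2.11 and 2.67) and in F1 drought. Bradi2g39710 and Bradi2g39720 had totals of 4064.715 and 6268.285 counts, with fractions that complete each other to a whole number. Such fractions arise where reads are split between genes, so the shared direction of these neighbours may not be independent. The totals of Bradi4g21710, Bradi4g21724, Bradi4g43450 and Bradi4g43460 were whole numbers. Whether neighbours are near-identical copies was not tested. Between Bradi2g38982 and Bradi2g39830, a stretch chosen after its values were seen, 6 of 38 genes passed (15.8%), all towards Bd21. Bradi2g39710 and Bradi2g39720 are both among these. Of all genes tested, 1.82% passed in that direction.

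The same measure in other plants gave the same directions for most of these genes. In F1 drought, 99 of the 99 had the same sign as in F1 control, and 26 passed on their own (26.3%), compared with 49 of 3403 (1.44%) of all genes in that comparison, 21 towards Bd3-1 (0.617%) and 28 towards Bd21 (0.823%). Among the 3304 genes that had not passed in F1 control, 63.1% had the same sign in drought and 0.696% passed. In the control parents, 93 of the 99 had the same sign, as did 62.8% of the genes that had not passed in F1 control. Of the 99, 43 passed in the parents (43.4%), compared with 182 of 3403 (5.35%) of all genes, 67 towards Bd3-1 (1.97%) and 115 towards Bd21 (3.38%). All 43 had the same direction in F1 and parents, so no gene passed in both with opposite signs. In the direction of the F1 control difference, the median over the 99 genes was 0.79 in the parents and 0.87 in F1 drought, and the median size in F1 control, where they were selected, was 1.01. In all 3 comparisons 15 genes passed, 6 towards Bd3-1 and 9 towards Bd21.

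The counts by size were as follows. Of the 53 genes over 2-fold, 52 had the parental sign and 35 passed in the parents (66.0%), and of the 46 genes up to 2-fold, 41 had the parental sign and 8 passed (17.4%). Read the other way, of the 182 genes past the threshold in the parents, 172 had the same sign in the F1 alleles (94.5%) and 43 passed in F1 control (23.6%). Over those 182 the median difference in the parents, where they were selected, was 1.32 on the log2 scale. The median allele difference in the same direction was 1.10. Without Bd21 control plant 2 the parental number was 87 and without Bd21 control plant 3 it was 91. For F1 drought it was 5, 6, 8 and 23 without plants 1 to 4 in turn.

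**Figure D5:**
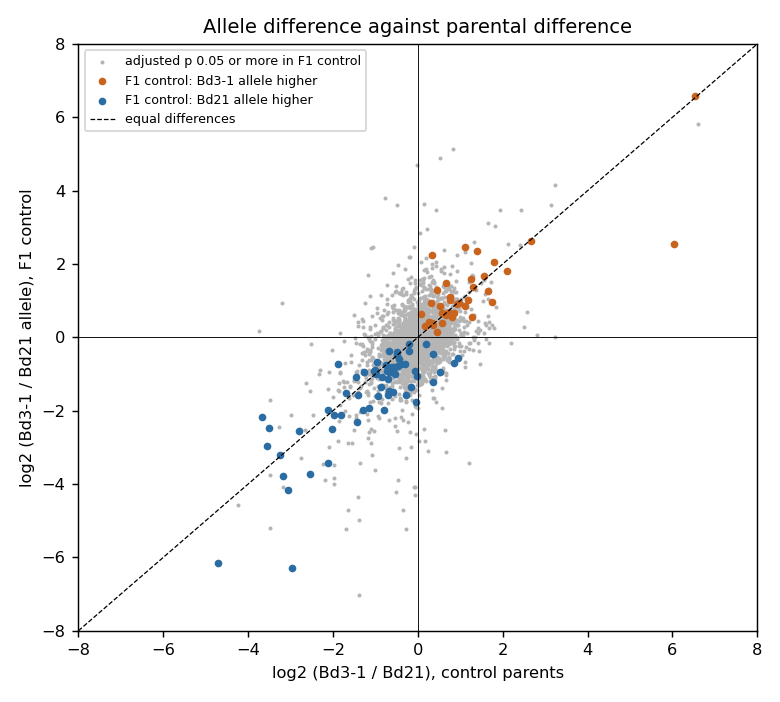
The allele difference in F1 control (vertical axis) is plotted against the difference between control parents (horizontal axis), both as log2 of Bd3-1 over Bd21, for 3403 genes. Coloured points are the 99 genes with an adjusted p under 0.05 in F1 control, of which 93 lie in the quadrants of equal sign, and Bradi5g04080 lies at 6.03 in the parents and 2.55 in F1.

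Direct tests of a difference between comparisons passed no gene. The parental difference against the allele difference (the trans term) passed 0 of 3403 genes with edgeR (0%). At an unadjusted P under 0.05 it passed 199 of the 3403, where a fraction of 0.05 would pass if no gene differed. DESeq2 passed 4 (Bradi2g35183, Bradi4g03645, Bradi4g44870 and Bradi5g14200). Without plant 2 of F1 control the edgeR test passed 2, Bradi3g01700 and Bradi4g06670. These genes were named after their values were seen. The allele difference in drought against control passed 0 of 3403 genes with edgeR (0%). At an unadjusted P under 0.05 it passed 142 of the 3403, against the same fraction of 0.05 if no gene differed. DESeq2 passed 7 genes. Among these was Bradi2g36030, which had 3.07% to 14.8% on Bd3-1 in control and 16.5% to 28.7% in drought, and it was the 1 gene to pass with edgeR without plant 4 of F1 control (log2 change 2.90 ± 0.37, adjusted p = 0.0483).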

How the data were processed

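RNA-seq of leaf was analysed for 24 libraries, and allele counts of 5 F1 control, 5 F1 drought and 8 parental control libraries were tested. The authors made stranded poly(A) libraries, built a diploid transcriptome from Bd3-1 variants on the Bd21 reference, aligned reads with Bowtie (1.2.2 in the submitters' processing notes) and deposited estimated counts from emase for each allele, not normalized. Estimated counts were rounded to whole numbers. Library sizes with TMM factors (from total counts, over genes detected in more than 10 libraries) were shared by both alleles of a library. Genes needed at least 10 counts over the columns tested. All 3403 had them. Tests used edgeR 4.0.16 in R 4.3.3, with DESeq2 1.42.0 and limma 3.58.1 (voom) as alternatives, and Python 3.11.15, scipy 1.17.1 and matplotlib 3.10.9. Log2 ratios in single plants had a pseudocount of 1. Normalized counts are scaled to the mean library size.

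Both alleles come from the same plant and library, which is where the pairing of the block comes from. The deviations of the alleles from their means correlated between -0.14 and 0.18 within a plant and between -0.19 and 0.16 across plants. Genes and lists were chosen with earlier results of these data known. Named genes are the study-named members, the 12 largest differences in each direction with at least 100 counts and the same sign in 5 plants, the 5 most abundant genes past the threshold in each direction, and genes with an allele at 0 in every plant, with opposite parental calls or with a called change under drought (no gene met the last 3). Others were picked after their values were seen. Lists by description could not be made, as none of 31335 reference genes shared an identifier (0 matches). emase splits reads that map to several genes, so near-identical copies are uncertain. Reads that fit both alleles of a gene were also divided between them. In F1 control plant 1, for example, Bradi2g39830 had 1091.2 counts for Bd21 and 272.8 for Bd3-1, a Bd3-1 share of 20.0%. The counts given for a gene can therefore exceed the number of reads that told its alleles apart, which was not available. The fits were also run on simulated data, with results not reported here, so no power is given for the tests that passed 0 genes. P-values weigh a difference against the spread between these plants, and the edgeR estimate of that spread draws partly on other genes. The main fit of the trans term had no plant term, so the alleles of an F1 plant entered it as separate libraries. Counts give no information on whether fewer cells or less RNA per cell lies behind a level.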

Additional observations from a re-analysis of the deposited data

Results flagged for a closer look

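Among 62 sets of 5 plant values, 4 held a plant far from the rest by Dixon's criterion (0.71), and chance gives about 1 in 20. They were the Bd3-1 share of Bradi1g63600, a NAC regulator, at 0% in plant 5 against 45.6% to 54.9% in the others; of Bradi2g36030, at 14.8% in plant 4; of Bradi4g21710, at 16.3% in plant 1; and of Bradi4g24302, at 96.0% in plant 2. The last 3 were past the threshold in F1 control, and for each every plant lay on the same side of 50%.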

How the results depend on the processing

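The number of genes with an allele difference was 99. It was 86 with no replicate block, of which 56 were shared, and 106 with each allele column scaled by its own TMM factor. It was 297 with DESeq2, 175 with limma-voom and 211 with the study's single-condition model and no plant term. Leaving both low-count parental libraries out of the rule gave 54, from a larger set of 4744 genes kept by that rule. Over the 3403 genes the number was 194 at an adjusted p under 0.1. At an unadjusted P it was 783 under 0.1 and 539 under 0.05. Leaving out a plant gave between 12 and 123. For the parents it was 98 with the replicate block, whose numbers do not mark shared plants, 349 with DESeq2, 78 in the single-condition model, 728 at an unadjusted P under 0.05, and between 87 and 165 without a library. For F1 drought it was 37 with no replicate block, 249 with DESeq2 and between 5 and 36 without a plant. Drought against control gave 0 to 1 without a plant, 0 with no replicate block, 7 with DESeq2 and 142 at an unadjusted P under 0.05. For the trans term the number was 0 to 2 without a plant, 0 with the plant as a replicate block in limma-voom, 4 with DESeq2 and 199 at an unadjusted P under 0.05. The causes of these shifts were not tested. The unadjusted counts at 0.05 were chosen after seeing the data, and a fraction of 0.05 of genes without a difference would pass that threshold. The distinguishable genes numbered 6447 on accession means and between 3403 and 3934 without a library. The Bd3-1 share was 49.3% as the median over genes, between 49.6% and 49.7% without a plant, and had p = 0.881 in an exact permutation test with no replicate block. Of the 42 named genes past the threshold, 42 kept their sign and 10 passed in all fits without a plant. Signs turned for genes that had not passed: Bradi1g53680 (0.027 with no replicate block, 0.00035 with own factors, 0.027 in the single-condition model, between -0.15 and 0.026 without a plant), Bradi1g55600 (between -0.58 and 0.14 without a plant) and Bradi3g44990 (between -0.90 and 0.019 without a plant).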
